A study of Mus musculus with 35 samples.

Results

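The laminin chains are described here in 35 RNA-seq libraries of mouse pancreatic ductal adenocarcinoma (PDAC) cells sorted from the pancreas, the liver and the lungs. Members were all rows of the count table whose gene name was Lama3, Lama4, Lama5, Lamb1, Lamb2, Lamb3 or Lamc1, which gave 7 of 53465 genes. Of the laminin genes that are not members, Lama1 and Lama2 are given only for comparison. Values were read across the 18 libraries labelled Smad4 off and the 17 labelled Smad4 on, in 12 groups of organ, day and label.

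The cells came from tumors of KC-shSmad4 mice, which carry Ptf1a-Cre (active in the pancreatic lineage), a Cre-activated rtTA3 with mKate2 at Rosa26, and a doxycycline (Dox)-inducible, GFP-linked shRNA against Smad4 at Col1a1. All groups therefore shared these alleles and the luciferase that was added for imaging. Dox silences Smad4 (labelled off) and its withdrawal is designed to restore Smad4 (labelled on). Cells were placed in female Foxn1nu nude mice of 6 to 8 weeks, which lack T cells but keep other host cells, by orthotopic injection into the pancreas, intrasplenic injection for the liver or tail-vein injection for the lungs. Dox was withdrawn 4 weeks after pancreas injection, and 5 and 6 weeks after injection for liver and lungs, so that organ, injection route and tumor age cannot be told apart. mKate2+ cells were sorted 7 or 14 days later, and by the study's design the groups labelled off stayed on Dox. The study used several cell lines and the labels do not say which line gave a library. On day 7 there were 3 off and 2 on libraries from the pancreas, 2 off and 3 on from the liver, and 4 off and 2 on from the lungs. On day 14 there were 2 off and 3 on, 3 off and 3 on, and 4 off and 4 on in the same order.

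Laminins are large basement membrane proteins, each made of 1 alpha, 1 beta and 1 gamma chain joined in a coiled coil. The alpha chain carries the main sites for integrins and dystroglycan, and the beta and gamma chains take part in assembly of the network. The alpha 3 chain (Lama3) pairs with beta 3 (Lamb3) in the laminin of hemidesmosomes, which anchors epithelial cells. The alpha 4 chain (Lama4) is made mainly by mesenchymal and endothelial cells, and alpha 5 (Lama5) by most epithelia. Beta 1 (Lamb1) and gamma 1 (Lamc1) are shared by many laminins, and beta 2 (Lamb2) takes the place of beta 1 in basement membranes of mature vessels, kidney and neuromuscular junctions.

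Values are CPM, the deposited counts of a gene relative to the library total (rescaled with edgeR's TMM factors), which can be compared between libraries for 1 gene. The libraries held 11885461 to 43571007 counts, which puts a floor of 3 counts at 0.0689 to 0.252 CPM, for counting error only, and the lowest member count in any library was 20 (Lama4). Smad4 itself went against the labels: it was 69.9 to 143.3 CPM in the 18 libraries labelled off and 14.8 to 22.4 CPM in the 17 labelled on, with no overlap. Groups are therefore called by their labels throughout. Changes are signed by label, so a gene lower at label on was lower where Smad4 mRNA was lower. Whether the labels match the Dox treatment was not tested. All 7 epithelial tumor markers (such as Epcam, Krt8 and Krt19) and all 8 fibroblast markers (such as Col1a1, Dcn and Pdgfrb) were detected in every library. The liver library labelled off, day 7, mouse 2 stood apart and was the only one labelled paired-end. Its fibroblast markers summed to 36093.2 CPM against 261.4 to 4354.6 CPM in the other 10 liver libraries, its pancreatic acinar markers to 294.7 CPM against 4.43 to 16.8, and its hepatocyte markers to 1.57 CPM against 16.9 to 141.0. Where a value or call turned on it, the value without it is also given. In sorted bulk cells, a lower level through fewer cells of a type and through less RNA per cell cannot be told apart.

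Promoters are shown for Lamb1 and Lamb3, which passed the adjusted p by label in the mean of all organs and days, both lower at label on. Lama5, which did not pass it, is also shown. Lamb2, which passed it in the other direction, is described without its sequence. The RefSeq promoter table (GRCm38.p6) held 4 of the 7 members (Lama5, Lamb1, Lamb2 and Lamb3), and the 250 bases before each annotated start were searched on both strands. The motifs were CAGAC (the SMAD binding element, GTCTG on the other strand), TGANTCA (AP-1), GGGCGG (the GC box, CCGCCC on the other strand) and TGTGGT (RUNX), which do not overlap one another in these windows. The sequences below run 5′ to 3′ on the gene's strand and stop where an annotated exon base first falls in the window, and capitals mark CAGAC and GGGCGG matches on either strand.
Lama5, chr2:180225860-180226109, minus strand: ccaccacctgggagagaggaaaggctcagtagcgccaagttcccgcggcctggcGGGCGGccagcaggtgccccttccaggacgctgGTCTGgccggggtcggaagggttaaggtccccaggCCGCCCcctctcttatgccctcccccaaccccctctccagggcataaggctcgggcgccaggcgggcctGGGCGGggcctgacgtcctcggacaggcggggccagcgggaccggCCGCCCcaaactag
Lamb1, chr12:31265043-31265233, plus strand: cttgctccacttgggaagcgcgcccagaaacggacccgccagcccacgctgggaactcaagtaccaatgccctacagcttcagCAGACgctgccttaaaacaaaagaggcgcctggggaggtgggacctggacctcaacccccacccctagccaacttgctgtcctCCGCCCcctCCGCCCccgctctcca
Lamb3, chr1:193301744-193301992, plus strand: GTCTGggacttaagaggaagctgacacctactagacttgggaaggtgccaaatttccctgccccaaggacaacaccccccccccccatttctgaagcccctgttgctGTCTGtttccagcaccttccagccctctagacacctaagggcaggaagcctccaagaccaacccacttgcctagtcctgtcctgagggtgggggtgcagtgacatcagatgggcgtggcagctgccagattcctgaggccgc
The Lamb1 stretch of 191 bases held 1 CAGAC match and 2 GC boxes, the Lama5 stretch of 250 bases 1 and 4, and the Lamb3 stretch of 249 bases 2 and 0, and the full windows of 250 bases held the same numbers. None of the 3 held a TGANTCA or TGTGGT match. The Lamb2 window of 250 bases held 2 CAGAC matches and 0 GC boxes, and its 124 bases before the first annotated exon base held 0 of either. The Lamb3 start lies inside the gene as the count table spans it (below), and the promoter table held another Lamb3 window, chr1:193301993-193302242, with 1 CAGAC and 0 GC boxes, which is not shown. Of the 32851 windows of 250 bases in the table, 42.2% held a CAGAC, 32.7% a GGGCGG, 14.0% a TGTGGT and 6.75% a TGANTCA, so CAGAC is common and a match describes the letters only. G and C made up 63.9% of the Lamb1 stretch, 72.4% of the Lama5 stretch and 58.6% of the Lamb3 stretch.

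In GRCm38 coordinates of the count table, the alpha chain genes were Lama3 (ENSMUSG00000024421, chr18:12333819-12583013, plus strand), Lama4 (ENSMUSG00000019846, chr10:38965515-39110188, plus strand) and Lama5 (ENSMUSG00000015647, chr2:180176373-180225859, minus strand). The beta chain genes were Lamb1 (ENSMUSG00000002900, chr12:31265234-31329644, plus strand), Lamb2 (ENSMUSG00000052911, chr9:108479736-108490530, plus strand) and Lamb3 (ENSMUSG00000026639, chr1:193207699-193343878, plus strand). Lamc1 (ENSMUSG00000026478, chr1:153218922-153332786, minus strand) was the gamma chain. Each count sums reads over all exons of the gene. Of the exon bases of Lama3, 197 (1.83%) overlap Gm29200 on the opposite strand, and whether the counting used strand is not given in the sources used here.

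Per kilobase of exon, the most abundant chains differed between organs. In the pancreas the highest medians were Lamb1 at 92.8 CPM per kb and Lamc1 at 69.6, followed by Lama5 at 44.5. Lama5 led in the liver (68.0 CPM per kb) and the lungs (79.2), while Lamb1 stood at 18.4 and 27.4. Lamb2, with 27.4, 33.2 and 42.1 CPM per kb in pancreas, liver and lungs, and Lamc1, with 69.6, 37.6 and 44.0, stayed within a narrower band. Lamb3 reached 32.9 CPM per kb in liver libraries, against 10.6 in pancreas and 12.1 in lung libraries. Lama3 was the lowest alpha chain of the pancreas at 2.38 CPM per kb, and Lama4 that of the lungs at 0.356. Over all 35 libraries, the highest and lowest CPM differed 318.1-fold for Lama4, 55.4-fold for Lama3, 16.8-fold for Lamb1 and 15.2-fold for Lamb3, but only 4.56-fold for Lamc1, 2.89-fold for Lamb2 and 2.84-fold for Lama5.

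Expressed as shares of the 3 alpha members per kilobase, Lama5 held a median of 70.7% in pancreas libraries labelled off (range 60.3% to 83.7%) and 96.1% in lung libraries labelled off (95.3% to 98.1%). Lama4 made up the difference in the pancreas, with a median of 26.0%, against 0.372% in the lungs. Among the 3 beta members, Lamb1 held 74.4% in pancreas libraries labelled off, 40.1% in the liver and 32.9% in the lungs. In liver libraries labelled on, Lamb1 held 17.1% (10.3% to 18.6%), and Lamb2 and Lamb3 took 44.2% and 39.4%. These shares leave out the chains that are not members and describe mRNA, not protein.

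**Figure D1:**
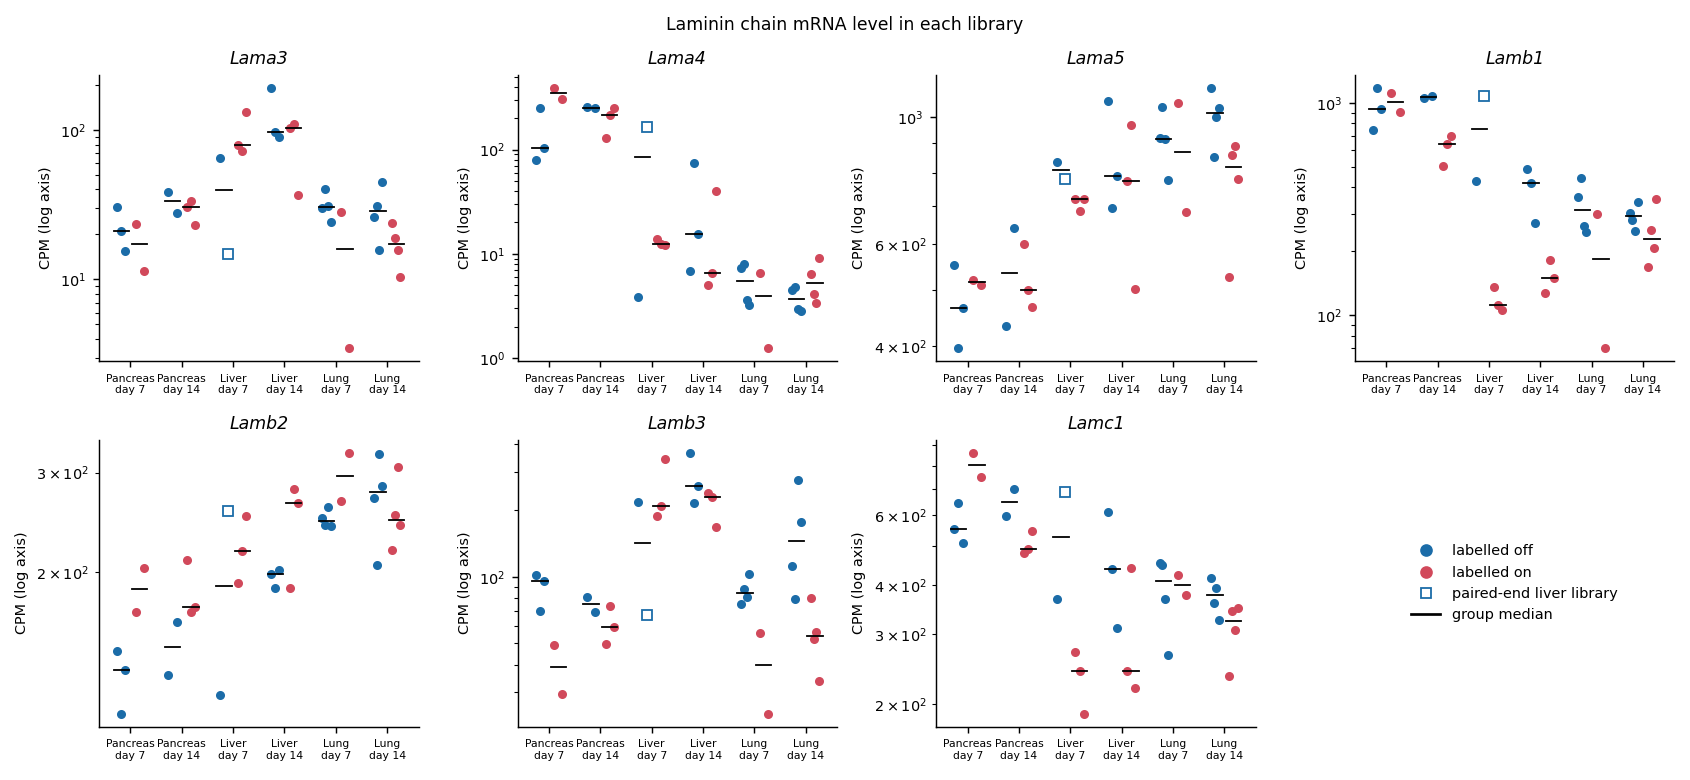
CPM (log axis) of each laminin chain in every library, by organ and day, with libraries labelled off in blue and on in red, the paired-end liver library as an open square and the group median as a bar. Lama4 and Lamb1 are highest in the pancreas, Lama3 and Lamb3 in the liver apart from the open square, and Lama5 in the lungs and liver.

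The organ comparisons asked how the same kind of tumor cell differed by site at a given label. They were taken from edgeR's quasi-likelihood fit over all 12 groups as the mean of both days, and calls required a change of more than 2-fold and, after Benjamini-Hochberg adjustment across 17547 genes, p under 0.05. Over the 6 organ comparisons, 15 of 42 member tests were called, 26 had an adjusted p under 0.05 and 33 an unadjusted one. The shares of all genes that follow are for both thresholds, and none is given for a p alone. By comparison, the called members numbered 2 of 7 for liver against pancreas at label off (9.52% of all genes), 2 for lungs against pancreas (19%) and 2 for liver against lungs (5.28%). At label on they numbered 5 (22.6%), 2 (13.7%) and 2 (10.9%). The comparisons share libraries and are not independent of one another, and the counts for lungs against pancreas lie near the share of all genes called (2 of 7 against 19% and 13.7%). Statements below that organs did not overlap describe the values only. The share of all genes whose organs did not overlap is not given.

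Lama4, the mesenchymal alpha chain, showed the largest differences. Pancreas libraries labelled off held 80.0, 104.3, 249.7, 252.1 and 257.8 CPM, and those labelled on 129.3, 217.2, 249.8, 304.7 and 394.5 CPM. In the 14 lung libraries it lay between 1.24 and 9.02 CPM (median 4.29), so that the organs did not overlap. Lungs were lower than pancreas by a log2 fold change of -5.39 (SE 0.66, adjusted p = 1.2e-06) at label off and -5.81 (SE 0.86, adjusted p = 3.68e-05) at label on. In the liver, Lama4 was 4.99 to 39.9 CPM (median 12.3) in the 6 libraries labelled on, and 3.83, 6.79, 15.6, 74.5 and 165.7 CPM in the 5 labelled off, the last of them the paired-end library. Liver was lower than pancreas at label on (-4.16, SE 0.70, adjusted p = 3.4e-05). At label off the same difference was -1.88 (adjusted p = 0.0623) with the paired-end library and -4.11 (adjusted p = 0.000721) without it. The call of Lama4 for liver above lungs at label off (3.52, SE 0.63, adjusted p = 0.00087) was lost without that library (1.29, adjusted p = 0.176), whereas at label on it was 1.65 with it (adjusted p = 0.0904) and 1.66 without (adjusted p = 0.036). At label off the liver-pancreas difference was also called by DESeq2 (-1.89, adjusted p = 0.0194), on day 14 alone (-2.97, adjusted p = 0.0361), and without liver off day 14 mouse 2 (-2.65, adjusted p = 0.0116) or liver on day 14 mouse 3 (-1.88, adjusted p = 0.0418). At label on the liver-lung difference was called by DESeq2 (1.63, adjusted p = 0.0311) and without liver off day 7 mouse 1 (1.62, adjusted p = 0.0382), but it was 0.88 (adjusted p = 0.363) without liver on day 14 mouse 3.

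Lamb1, the common beta chain, followed the same order of pancreas over the other organs. Pancreas libraries labelled off held 748.0, 936.8, 1053.5, 1075.6 and 1179.7 CPM, above all 8 lung libraries labelled off (246.1 to 443.6, median 292.6). The lungs were lower by -1.70 (SE 0.25, adjusted p = 1.16e-05) at label off and by -1.89 (SE 0.29, adjusted p = 5.57e-05) at label on. At label on, liver libraries held 106.1 to 182.8 CPM (median 131.7) against 501.8, 637.3, 698.1, 903.6 and 1117.8 CPM in the pancreas. That liver-pancreas difference in Lamb1 was -2.55 (SE 0.28, adjusted p = 1.8e-07), the lowest adjusted p of any member in an organ comparison. At label off the liver differed from the pancreas by -0.89 (adjusted p = 0.0349), under the fold threshold, and by -1.29 (adjusted p = 0.0048) without the paired-end library, in which Lamb1 was 1075.4 CPM, or -1.43 (adjusted p = 0.0169) on day 14 alone. Liver and lungs differed in Lamb1 by 0.81 (adjusted p = 0.0449) at label off and -0.66 (adjusted p = 0.0798) at label on. The first was 0.41 (adjusted p = 0.398) without the paired-end library and was called without liver off day 7 mouse 1 (1.05, adjusted p = 0.00936), and the second was called without lung on day 7 mouse 2 (-1.04, adjusted p = 0.00463), whereas without mouse 1 of the same group it was 0 (SE 0.25, adjusted p = 1).

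Lamc1, the common gamma chain, differed in the same direction but by less. Its median was 596.7 CPM in pancreas libraries labelled off, 438.9 in the liver and 380.4 in the lungs. At label on it was 546.1 CPM in the pancreas (481.6 to 862.1), 241.9 in the liver (189.0 to 440.5) and 345.8 in the lungs (235.3 to 424.5). Neither liver nor lung libraries labelled on reached the lowest pancreas value. Only liver against pancreas at label on was called (-1.27, SE 0.19, adjusted p = 9.96e-06), and on day 14 alone it fell under the fold threshold (-0.75, adjusted p = 0.0415).

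Lama3 and Lamb3, chains of the hemidesmosomal laminin, had their highest levels in the liver. Lamb3 was 216.1, 217.3, 256.7 and 364.6 CPM in the 4 other liver libraries labelled off and 66.8 CPM in the paired-end library. Liver libraries labelled on held 168.9 to 340.8 CPM of Lamb3 (median 219.2), against 29.4, 49.0, 49.7, 59.5 and 73.6 CPM in the pancreas and 24.0 to 79.8 CPM (median 53.9) in the lungs. Thus at label on every liver library lay above every library of the other organs, a separation for which no share of all genes is given. Lamb3 was higher in liver than pancreas by 2.23 (SE 0.33, adjusted p = 6.78e-06) at label on and 1.28 (SE 0.33, adjusted p = 0.00839) at label off. Liver exceeded lungs by 2.28 (SE 0.32, adjusted p = 2.24e-05) at label on, and by 0.75 (adjusted p = 0.0943) at label off, 1.07 (adjusted p = 0.0255) without the paired-end library and 0.19 (adjusted p = 0.782) without the other liver library of that group, liver off day 7 mouse 1. The Lamb3 call at label off against pancreas was lost without liver off day 7 mouse 1 (0.72, adjusted p = 0.188) or pancreas off day 14 mouse 2 (1.25, adjusted p = 0.0541).

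Lama3 was 65.1, 89.4, 96.6 and 192.3 CPM in the 4 other liver libraries labelled off and 14.7 CPM in the paired-end library. It was 36.9 to 132.9 CPM (median 91.2) in liver libraries labelled on, against 11.4, 23.2, 23.4, 30.6 and 33.5 CPM in the pancreas and 3.47 to 28.3 CPM (median 17.4) in the lungs. As with Lamb3, the liver libraries labelled on did not overlap the other organs. The liver excess of Lama3 at label on was 1.98 over pancreas (SE 0.44, adjusted p = 0.000793) and 2.43 over lungs (SE 0.44, adjusted p = 0.000324), and on day 14 alone the former was 1.52 (adjusted p = 0.0596). At label off it was 1.38 over pancreas (SE 0.44, adjusted p = 0.0321) and 1.22 over lungs (SE 0.38, adjusted p = 0.0439). Both calls at label off were fragile: without liver off day 7 mouse 1 they were 0.65 (adjusted p = 0.391) and 0.49 (adjusted p = 0.517), and the call over lungs was lost in 17 of 43 alternatives. The call over pancreas was also lost without pancreas off day 7 mouse 2 (adjusted p = 0.0646) or 3 (adjusted p = 0.071), pancreas off day 14 mouse 1 (adjusted p = 0.0788) or 2 (adjusted p = 0.139), or liver off day 14 mouse 1 (adjusted p = 0.0781). For lungs against pancreas Lama3 did not pass the test (0.16 and -0.44, adjusted p = 0.778 and 0.467), and without lung on day 7 mouse 1 the latter was called (-1.56, adjusted p = 0.0231).

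Lama5, the epithelial alpha chain, and Lamb2, the beta chain of mature basement membranes, were higher outside the pancreas by less than 2-fold. Lama5 was 396.2 to 639.9 CPM in the 10 pancreas libraries, 501.9 to 1065.5 CPM in the 11 liver and 527.1 to 1124.0 CPM in the 14 lung libraries. Its differences from the pancreas were 0.72 (liver) and 0.93 (lungs) at label off and 0.49 and 0.65 at label on, with adjusted p from 8.68e-05 to 0.0228. Only without pancreas off day 14 mouse 2 did 1 of them pass the fold threshold (lungs, label off, 1.08, adjusted p = 0.000268). Lamb2 was 112.5 to 210.4 CPM in pancreas libraries, 121.2 to 280.5 in liver and 206.1 to 325.0 in lung libraries. Its lung differences were 0.90 (adjusted p = 3.89e-05) and 0.56 (adjusted p = 0.00972) at label off and on, and its liver differences 0.47 (adjusted p = 0.0427) and 0.32 (adjusted p = 0.0985). Neither gene passed the test between liver and lungs (adjusted p = 0.0635 to 0.539). Without the paired-end library, Lamb2 at label off did not pass for liver against pancreas (0.15, adjusted p = 0.502) and was lower in the liver than in the lungs (-0.75, adjusted p = 0.00446), and it passed for liver against pancreas at label on (0.32, adjusted p = 0.0406).

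**Figure D2:**
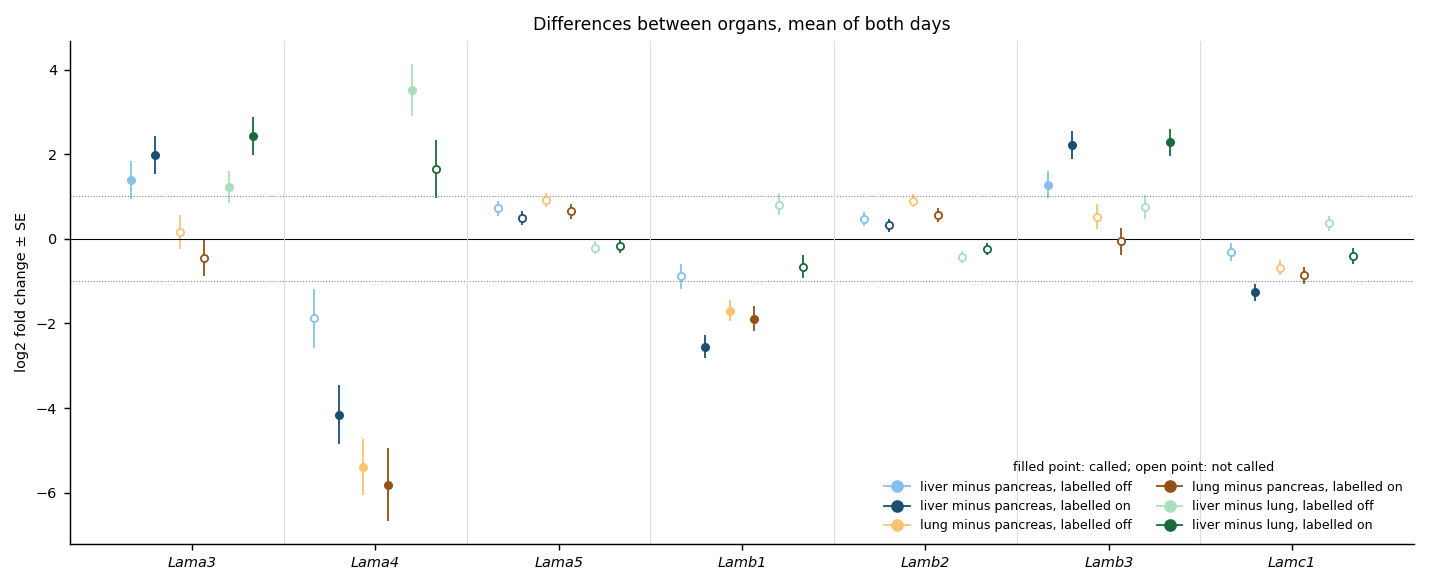
log2 fold change ± SE between organs for each laminin chain, mean of both days, at each label, with called differences (fold over 2 and adjusted p under 0.05) as filled points. Dotted lines mark a 2-fold change, and the largest differences are those of Lama4 between lungs and pancreas (-5.39 and -5.81).

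Ratios of 2 chains within a library do not depend on library scaling. The log2 ratio of Lama4 to Lama5 counts lay between -2.79 and -0.40 for pancreas libraries, -7.76 and -2.23 for liver libraries (-7.76 and -3.22 without the paired-end library), and -9.07 and -6.36 for lung libraries. It differed by -4.32 between liver and pancreas (adjusted p = 0.00024, or -5.01 and 0.00021 without that library) and by -6.48 between lungs and pancreas (adjusted p = 0.00016), by a two-sided permutation test within day and label with 100000 resamples, adjusted over 12 ratio tests. The ratio of Lamb3 to Lamb1 was higher than in the pancreas by 3.45 in the liver (adjusted p = 0.00029) and by 2.06 in the lungs (adjusted p = 0.00018). Liver exceeded lungs by 1.39 (adjusted p = 0.0151), by 1.77 without the paired-end library (adjusted p = 0.00021), and this last difference was lost without liver off day 7 mouse 1 (1.01, adjusted p = 0.119).

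Levels of fibroblast, acinar, epithelial tumor and host-organ markers moved with several of these organ differences. The 8 markers summed to 9256.4 to 25361.4 CPM in the 10 pancreas libraries, 261.4 to 4354.6 CPM in 10 of the liver libraries and 161.3 to 1995.6 CPM in the 14 lung libraries. Across 35 libraries, which share organ and sort, the log2 level of Lama4 went with that sum (Pearson r = 0.95, Spearman rho = 0.883), and within organs r was 0.954 in the liver, 0.671 in the lungs and 0.337 in the pancreas. Lamb1 gave r = 0.778 over all libraries and 0.346, 0.479 and 0.629 within pancreas, liver and lungs. In the liver the Spearman rho was 0.136. The paired-end library was the highest liver library in both the fibroblast sum (36093.2 CPM) and Lamb1 (1075.4 CPM), and r without it is not given. For Lamc1 r was 0.647, for Lamb3 -0.342 and for Lama5 -0.729. The 5 pancreatic acinar markers summed to 514.4 to 2477.2 CPM in the pancreas, 4.43 to 16.8 CPM in 10 of the liver libraries and 2.89 to 13.2 CPM in the lungs. Over all libraries the acinar sum gave r = 0.899 with Lama4 and 0.782 with Lamb1, and within the pancreas -0.549 and -0.175. The 7 epithelial tumor markers ran the other way, at 2255.1 to 6989.1 CPM in the pancreas, 11105.1 to 16392.5 in the liver without the paired-end library (3630.1 in it) and 5405.6 to 13646.3 in the lungs. With their sum, r was -0.826 for Lamb1 and 0.635 for Lamb3. The 5 lung epithelium markers summed to 64.3 to 499.6 CPM in the lungs and to at most 1.72 CPM in the other organs, and the 6 hepatocyte markers to 16.9 to 141.0 CPM in 10 of the liver libraries, 3.62 to 55.3 CPM in the lungs and 1.66 to 10.5 CPM in the pancreas. Over all libraries, r with the lung epithelium sum was 0.555 for Lama5 and 0.634 for Lamb2, and r with the hepatocyte sum 0.569 for Lama3 and 0.546 for Lamb3. Within the lungs, r with the lung epithelium sum was -0.0181 for Lama5 and -0.245 for Lamb2. Within the liver, with the paired-end library, r with the hepatocyte sum was 0.698 for Lama3 and 0.776 for Lamb3 (Spearman rho 0.291 and 0.255). The 7 endothelial markers summed to 18.5 to 36.7 CPM in the pancreas and 35 to 105.4 CPM in the lungs. In 10 of the liver libraries they summed to 3.67 to 70.6 CPM, and in the paired-end library to 75.7 CPM. Of these markers, Cdh5 reached 70.8 CPM in the liver, 70.9 in the lungs and 31.7 in the pancreas. No other endothelial marker exceeded 4.15 CPM in the liver. Between the endothelial sum and Lama4, r was -0.181 over all libraries, and -0.144, 0.632 and -0.368 within pancreas, liver and lungs. The part of these cells in the laminin differences was not tested. The genes behind the hepatocyte sum are given below with the label changes.

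**Figure D3:**
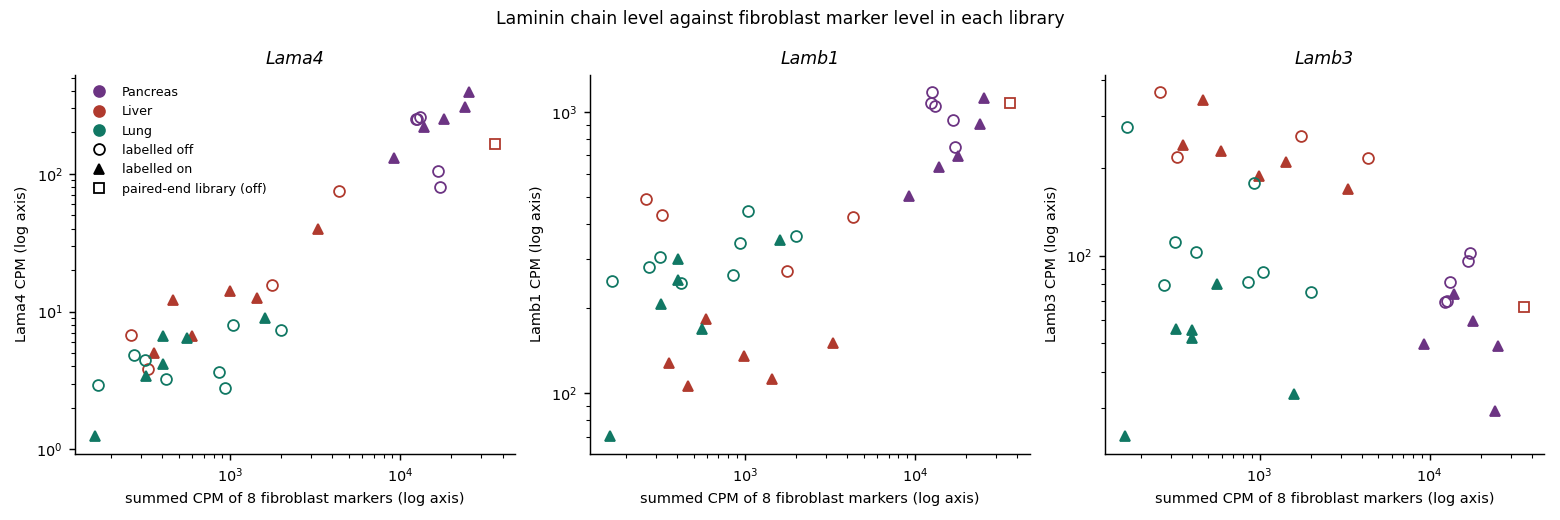
CPM of Lama4, Lamb1 and Lamb3 (log axes) against the summed CPM of 8 fibroblast markers in each library, by organ (color) and label (open circles off, triangles on), with the paired-end liver library as a square. Lama4 and the marker sum are both highest in the pancreas (r = 0.95 over all libraries, 0.337 within the pancreas), while Lamb1 libraries labelled on lie under those labelled off in the liver at similar sums.

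The label comparisons asked whether the chains differed between the labels within 1 organ and day, each fitted on its own libraries. None of the 42 member tests was called by edgeR, 12 had an unadjusted p under 0.05 and 1 an adjusted p under 0.05, and DESeq2 called 5. Those 5 were 2 in the liver on day 7, where DESeq2 called 17.7% of all genes, and 1 each in the liver on day 14 (2.22%), the pancreas on day 7 (3.59%) and the lungs on day 14 (1.34%). DESeq2 called 0 members in the pancreas on day 14 (5.84%) and the lungs on day 7 (0.658%). Of all genes tested on day 7, edgeR called 1.33% for the pancreas, 0.444% for the liver and 0% for the lungs. The day 14 shares were 4.64%, 0% and 0.0271%. In simulations at the same group sizes, edgeR recovered 81.5%, 24% and 56% of 200 genes changed 4-fold on day 7 in that order, and 85%, 55.5% and 79% on day 14. Changes under 4-fold were not simulated. Averaged over the 6 organs and days, where 6% of 17547 genes were called, 0 of 7 members were called and 4 had an adjusted p under 0.05: Lamb1, Lamb2, Lamb3 and Lamc1. All shares here are for both thresholds, and none is given for an adjusted or unadjusted p alone. The median member change in that mean was -0.306 against 0.00822 for all genes.

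Lamb1 was lower in libraries labelled on in 5 of 6 comparisons. In the liver on day 14 it was 271.5, 421.4 and 488.3 CPM in libraries labelled off and 128.0, 150.7 and 182.8 CPM in those labelled on. On day 7 the liver values were 429.0 CPM and, in the paired-end library, 1075.4 CPM at label off, and 106.1, 112.5 and 135.3 CPM at label on. In both liver comparisons the labelled groups did not overlap. In the pancreas on day 14, Lamb1 was 1053.5 and 1075.6 CPM at label off and 501.8, 637.3 and 698.1 CPM at label on, again without overlap. On day 7 the pancreas values overlapped, at 748.0, 936.8 and 1179.7 CPM against 903.6 and 1117.8 CPM. Lung values on day 7 were 246.1, 263.3, 361.6 and 443.6 CPM at label off and 70.1 and 300.1 CPM at label on. On day 14 they were 249.8, 281.7, 303.6 and 342.6 CPM against 169.1, 207.4, 251.9 and 351.2 CPM. Both lung comparisons overlapped. The share of all genes whose groups did not overlap was 41.1% to 43.4% with 5 libraries in a comparison, 13.9% in the liver on day 14, 12.6% in the lungs on day 7 and 5.18% on day 14.

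In liver cells the log2 fold change of Lamb1 was -2.75 (SE 0.42, adjusted p = 0.0562) on day 7 and -1.40 (SE 0.29, adjusted p = 0.357) on day 14. Only 2 liver libraries were labelled off on day 7. Leaving out the paired-end library left 1 against 3, with the spread taken from the libraries labelled on, and the value was then -1.97 (adjusted p = 0.0275, 4.98% of all genes called). Leaving out the other one set the paired-end library alone against those 3 (-3.21, adjusted p = 0.00224, 19.8% of all genes called). Both passed the thresholds, but a fit with a single library labelled off has no replicate check of that group. Pancreas on day 14 gave -0.77 (SE 0.14, adjusted p = 0.0123), the only member past the adjusted threshold, at a change under 2-fold. Pancreas on day 7 gave 0.10 (SE 0.21). Lung values were -0.83 (SE 0.55) on day 7 and -0.27 (SE 0.23) on day 14. With 1 library left out, these ranged from -2.17 to -0.15 and from -0.51 to -0.12. DESeq2 called Lamb1 in the liver on both days (-2.74, adjusted p = 8.9e-08, and -1.41, adjusted p = 0.00121). The day 7 value was also called in the single fit of 12 groups (-2.67, adjusted p = 5.84e-05) and without a filter on low counts (-2.73, adjusted p = 0.00553). So it was with 10 counts in every library (-2.69, adjusted p = 0.0469) and with the mt-Co3 covariate (-2.57), while 6 of 14 alternatives did not call it. In the mean of all 6 it fell by 0.97 on the log2 scale (SE 0.16, adjusted p = 7.17e-05, 1.96-fold), and ranged from -1.22 to -0.84 over 43 alternatives. Mouse number was fitted as a block in every organ and day, though taken to pair only the day 14 libraries of liver and lungs. With that block, the mean of all 6 was called (-1.06, SE 0.19, adjusted p = 0.00338). Leaving out any of 7 libraries took that mean past the fold threshold. These were mouse 1 of pancreas labelled on, mouse 1 of liver labelled off, mice 3 and 4 of lung labelled off and mouse 1 of lung labelled on, all of day 7, with mouse 3 of liver labelled off and mouse 4 of lung labelled on of day 14.

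Marker sums that differed by label are set beside the label changes here. In the pancreas on day 7, fibroblast markers summed to 12619.9 to 17240.6 CPM at label off and 24119.4 to 25361.4 CPM at label on, and acinar markers to 1407.9 to 2266.7 against 514.4 to 751.6 CPM, without overlap in either. On day 14 these sums overlapped between labels in the pancreas (fibroblast 12372.6 to 13105.8 against 9256.4 to 18046.0 CPM, acinar 685.8 to 2477.2 against 1171.3 to 1513.6 CPM). In the liver without the paired-end library, fibroblast sums over both days were 261.4 to 4354.6 CPM at label off and 356.9 to 3310.8 CPM at label on, and in the lungs on day 7 they were 422.0 to 1995.6 against 161.3 to 403.3 CPM, without overlap. Hepatocyte markers were 16.9 to 44.4 CPM at label off and 35.3 to 141.0 CPM at label on in the liver without the paired-end library (16.9 against 56.5 to 141.0 CPM on day 7). The correlation of Lamb1 with the hepatocyte sum was -0.894 over 11 liver libraries, -0.879 over 10 pancreas libraries and 0.00376 over 14 lung libraries. The highest genes of that sum in the liver were Apoa1 (up to 111.3 CPM) and Ttr (41.2), with Alb at most 16.7 CPM. In the pancreas Ttr reached 8.09 CPM and Alb 0.766 CPM, and in the lungs Apoa1 reached 35.3 CPM and Alb 0.478 CPM. The sum is therefore not shown to measure hepatocytes. In the liver on day 7, epithelial tumor markers were 11105.1 CPM and, in the paired-end library, 3630.1 CPM at label off and 14838.4 to 16392.5 CPM at label on, without overlap, and their correlation with Lamb1 over 11 liver libraries was -0.751. In the pancreas on day 14, where Lamb1 passed the adjusted p, epithelial tumor markers were 3832.0 to 4103.5 CPM at label off and 4910.1 to 6989.1 CPM at label on, hepatocyte markers 1.66 to 2.34 against 6.35 to 10.5 CPM and the mesothelial sum 183.0 to 192.6 against 243.6 to 336.1 CPM, without overlap in any of them. On day 7 epithelial tumor markers overlapped there (2255.1 to 3414.9 against 3014.3 to 4119.4 CPM), and their correlation with Lamb1 over 10 pancreas libraries was -0.835. The mesothelial list was nearly a single gene, Msln, which pancreatic tumor cells also express: it reached 1619.4 CPM, while Upk3b, Wt1 and Lrrn4 never exceeded 3.73 CPM. Medians of that sum at label off and on were 192.6 and 243.6 CPM in the pancreas, 664.4 and 330.6 CPM in the liver without the paired-end library and 512.6 and 289.1 CPM in the lungs. Leukocyte markers were higher at label on in the liver (12 to 16.7 against 33.3 to 53.0 CPM on day 7 and 21.5 to 55.4 against 62.6 to 138.9 CPM on day 14) and lower in the pancreas on day 7 (61.0 to 81.8 against 40.6 to 51.8 CPM). Pericyte and smooth muscle markers were higher at label on on day 7 in the liver (23.7 to 59.0 against 60.1 to 238.2 CPM) and the lungs (6.02 to 21.3 against 28.0 to 28.8 CPM). None of these groups overlapped. Pancreas libraries of day 14 also differed in depth by label, with totals of 28.6 to 32.2 M counts at label off and 12.2 to 14.3 M at label on. The part of depth or of these markers in the label differences was not tested.

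Lamb2 was higher at label on in 5 of 6 comparisons, against the direction of Lamb1. On day 7 it was 112.5, 134.2 and 144.8 CPM against 169.8 and 203.7 CPM in the pancreas, and 241.8, 242.3, 249.8 and 260.3 CPM against 267.3 and 325.0 CPM in the lungs, without overlap in either organ. In the pancreas on day 14 it was 131.5 and 163.5 CPM against 170.4, 173.6 and 210.4 CPM, also without overlap. Liver values overlapped on both days (121.2 and 257.0 against 191.7, 218.0 and 251.7 CPM on day 7; 187.5, 198.9 and 202.0 against 187.6, 264.6 and 280.5 CPM on day 14), as did lung values on day 14 (206.1 to 322.9 against 218.5 to 306.9 CPM). Changes ranged from -0.10 to 0.53 with a lowest adjusted p of 0.102. The mean over all 6 was 0.26 (SE 0.09, adjusted p = 0.031, 1.2-fold), but 0.17 (adjusted p = 0.111) without liver off day 7 mouse 1 and 0.27 (adjusted p = 0.0757) with mouse number as a block.

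The ratio of Lamb2 to Lamb1 was chosen with the opposite label changes of these genes known, so its values by label are a description and no test is given. In the pancreas the log2 ratio of counts was -3.39 to -2.37 at label off and -2.72 to -1.25 at label on, with medians of -2.80 and -2.01, so that the ratio overlapped where Lamb2 alone did not (112.5 to 163.5 CPM against 169.8 to 210.4 CPM over both days). In the liver it was -2.06 to -0.43 at label off (median -1.30) and 0.50 to 1.25 at label on (median 0.71), so Lamb1 counts were above Lamb2 counts in all 5 liver libraries labelled off and below them in all 6 labelled on. The paired-end library gave the lowest liver value, -2.06, next to -1.82 in the other liver library labelled off of day 7. Lamb1 alone also separated the labels in the liver (271.5 to 1075.4 CPM against 106.1 to 182.8 CPM). In the lungs the ranges were -0.87 to 0.37 and -0.53 to 2.21, which overlap, as did those of day 7 alone (-0.87 to -0.02 and -0.17 to 2.21). Averaged over organs and days the log2 ratio was higher at label on by 1.27, and by 1.25 without the paired-end library. With labels permuted within organ and day, the ratios of Lama4 to Lama5 and of Lamb3 to Lamb1 did not pass by label (-0.0524 and 0.4, adjusted p = 0.915 and 0.395), and the former turned to 0.408 (adjusted p = 0.337) without the paired-end library.

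**Figure D4:**
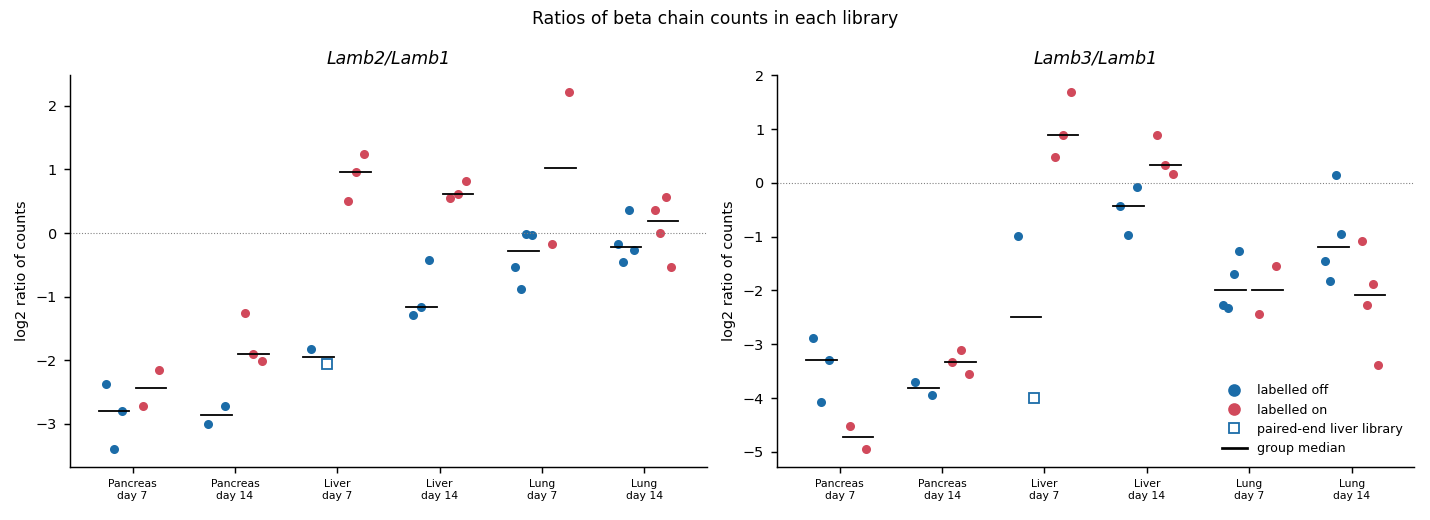
log2 ratios of Lamb2 to Lamb1 and of Lamb3 to Lamb1 counts in each library, by organ and day, with libraries labelled off in blue and on in red, the paired-end liver library as an open square and group medians as bars. All 6 liver libraries labelled on lie above 0 for Lamb2/Lamb1 and all 5 labelled off lie below it.

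Lamb3, the hemidesmosomal beta chain, was lower at label on in 5 of 6 comparisons. In the pancreas on day 7 it was 69.9, 95.8 and 101.9 CPM at label off and 29.4 and 49.0 CPM at label on, and in the lungs on day 7 it was 74.9, 81.2, 88.0 and 102.6 CPM against 24.0 and 55.6 CPM. Neither pair of groups overlapped. In the lungs on day 14 it was 79.4, 111.6, 177.6 and 275.3 CPM against 33.6, 52.2, 56.0 and 79.8 CPM, where a single library labelled on lay just above the lowest labelled off. Pancreas values on day 14 were 69.6 and 81.4 CPM against 49.7, 59.5 and 73.6 CPM, and overlapped. The changes were -1.18 (SE 0.28, adjusted p = 0.0872) and -0.29 (SE 0.16) in the pancreas on days 7 and 14, and -1.13 (SE 0.34) and -1.56 (SE 0.41, adjusted p = 0.251) in the lungs. DESeq2 called the first (adjusted p = 0.000562) and the last (-1.57, adjusted p = 0.00779). In the liver the change was 0.70 (SE 0.57) on day 7, with the paired-end library at 66.8 CPM, and -0.44 (SE 0.27) on day 14. The day 7 value was 0.07 without the paired-end library and 1.86 without liver off day 7 mouse 1, each leaving 1 library labelled off. The mean over all 6 was -0.63 (SE 0.18, adjusted p = 0.00947, 1.55-fold), and -0.73 (adjusted p = 0.00221) without the paired-end library. With mouse number as a block it was -0.62 (adjusted p = 0.0564). In the lungs on day 14, all 4 mouse numbers had the lower Lamb3 value at label on, and the blocked change was -1.45 (adjusted p = 0.251).

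Lamc1 was lower at label on in 4 of 6 comparisons. In the liver on day 7 it was 368.0 and 685.6 CPM (the latter the paired-end library) at label off and 189.0, 241.4 and 271.0 CPM at label on, and in the pancreas on day 14 it was 596.7 and 698.6 CPM against 481.6, 492.6 and 546.1 CPM. Both pairs of groups did not overlap. On day 7 the pancreas went the other way without overlap, at 511.3, 554.8 and 644.3 CPM against 747.6 and 862.1 CPM. Its changes in those comparisons were -1.25 (SE 0.33, adjusted p = 0.0961), -0.33 (SE 0.11, adjusted p = 0.0858) and 0.51 (SE 0.15, adjusted p = 0.107). The liver value was called by DESeq2 (-1.24, adjusted p = 0.00613), in the single fit of 12 groups (-1.17, adjusted p = 0.00349) and without a filter on low counts (-1.24, adjusted p = 0.0498), and was -0.76 (adjusted p = 0.155) without the paired-end library. The mean over all 6 was -0.31 (SE 0.11, adjusted p = 0.0439, 1.24-fold), and it did not pass the test without the paired-end library (-0.22, adjusted p = 0.162) or with mouse number as a block (-0.34, adjusted p = 0.0695).

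The alpha chains did not pass the test in the mean of all 6, at -0.28 (SE 0.24, adjusted p = 0.457) for Lama3, -0.44 (SE 0.38, adjusted p = 0.455) for Lama4 and -0.12 (SE 0.10, adjusted p = 0.403) for Lama5. For Lama3 that mean was -0.66 (adjusted p = 0.0368) without lung on day 7 mouse 1 and -0.06 (adjusted p = 0.935) without liver off day 7 mouse 1. Lama5 varied the least by label, from -0.40 in the lungs on day 14 to 0.14 in the pancreas on day 7. Lama3 ranged from -0.99 in the lungs on day 7 to 1.15 in the liver on day 7, and the latter value held the paired-end library at 14.7 CPM. Each end rested on single libraries: the lung value was -3.12 (adjusted p = 0.0523) without lung on mouse 1 and -0.17 (adjusted p = 0.903) without lung on mouse 2, and the liver value 0.43 (adjusted p = 0.507) without the paired-end library and 2.67 (adjusted p = 0.0217, called) with that library alone at label off. Lama4 was 80.0, 104.3 and 252.1 CPM at label off and 304.7 and 394.5 CPM at label on in the pancreas on day 7, without overlap (1.28, SE 0.51, adjusted p = 0.216), in the comparison where the fibroblast sum was higher and the acinar sum lower at label on, as given above. Their part in this change and in those of Lamc1, Lama2, Nid2 and Fbln1 in the same libraries was not tested. Without pancreas off mouse 2 that change was called (1.93, adjusted p = 0.0138). In the liver on day 7 the sign for Lama4 depended on the paired-end library. The change was -2.79 (adjusted p = 0.24) including it and 1.64 without it, with 1 library left at label off. It was called in the single fit of 12 groups (-2.72, adjusted p = 0.0387) and was -3.71 with the paired-end library alone at label off. Without the paired-end library, the mean over all 6 turned from -0.44 to 0.30 and was not called.

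**Figure D5:**
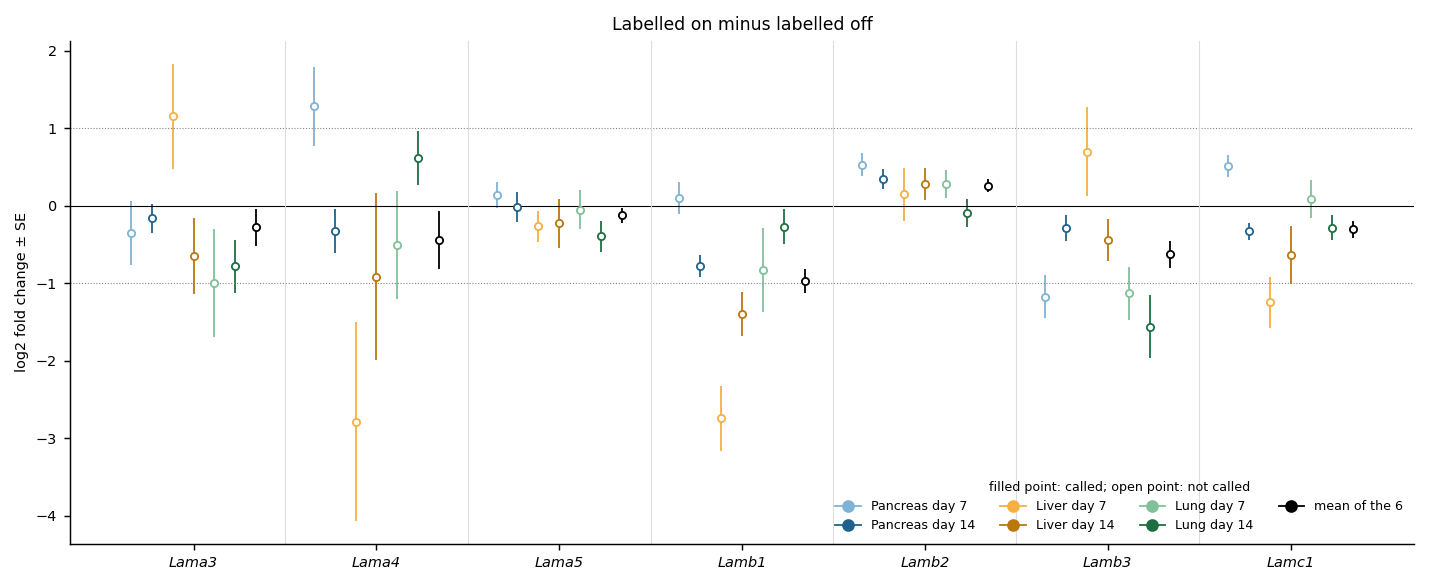
log2 fold change ± SE, labelled on minus labelled off, for each laminin chain in each organ and day, with the mean of the 6 in black and dotted lines at a 2-fold change. Filled points would be called, and all points are open because none was. Lamb1 lies below 0 in 5 of 6 comparisons and Lamb2 above 0 in 5 of 6.

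Whether the label change itself differed between organs was tested in the fit of 12 groups on each day. On day 7, 2 of 7 members were called for liver against pancreas (5.08% of all genes), 0 for lungs against pancreas (0.0114%) and 3 for liver against lungs (11.6%). The change in Lamb1 was lower in the liver by -2.75 than in the pancreas (SE 0.57, adjusted p = 0.00891) and by -1.84 than in the lungs (SE 0.55, adjusted p = 0.0264). For Lamc1 the differences were -1.67 (SE 0.40, adjusted p = 0.0185) and -1.23 (SE 0.39, adjusted p = 0.0357). For Lamb3 the change in the liver was higher than in the lungs by 1.92 (SE 0.65, adjusted p = 0.0488). All 5 calls rest on the paired-end library: without it, the values were -1.94 (adjusted p = 0.191), -1.04 (adjusted p = 0.312), -1.15 (adjusted p = 0.274), -0.72 (adjusted p = 0.332) and 1.30 (adjusted p = 0.264). The share of all genes called without it was 0.129% for liver against pancreas, 0.0161% for lungs against pancreas and 3.79% for liver against lungs. With mouse number as a block, 0 of the 5 were called. Other alternatives gained calls. For liver against pancreas, DESeq2 also called Lama4 (-4.03, adjusted p = 0.0233) and Lamb3 (1.92, adjusted p = 0.0397). For liver against lungs, the fit with the mt-Co3 covariate also called Lama3 (2.49, adjusted p = 0.0372). Other single libraries also mattered: Lamb1 for liver against lungs was -0.55 (adjusted p = 0.499) without lung on day 7 mouse 1, Lamc1 for liver against pancreas was lost without pancreas on day 7 mouse 1 (adjusted p = 0.0807), and the Lamb3 call was lost in 30 of 43 alternatives. The calls of Lamb1 and Lamc1 for liver against lungs were lost in 7 and 8 of 43. Each of these counts of alternatives holds the fit without the paired-end library 2 times. Without liver off day 7 mouse 1, which left the paired-end library alone in its group, 5 of 7 members were called for liver against pancreas (14.1% of all genes), 4 for liver against lungs (16.7%) and 0 for lungs against pancreas (0.0161%).

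On day 14, 0 of 7 members were called in any of the 3 differences between organs, as were 0% of all genes in each, with 3 of 21 unadjusted p values under 0.05. The largest for Lamb1 was liver against lungs, at -1.09 (SE 0.48). Between day 14 and day 7, 0 of 42 member tests were called, 5 had an unadjusted p under 0.05 and the lowest adjusted p was 0.179, for Lama3 in liver labelled off (1.66, SE 0.65). Of all genes, 1.07% were called in liver labelled off, which holds the paired-end library on day 7, and 0% in each of the other 5 groups. DESeq2 called 0 members by day, and edgeR 0 in liver labelled off without the paired-end library (0.00537% of all genes). Without liver off day 7 mouse 1, 10.6% of all genes and 3 members were called in that group, where day 7 was then the paired-end library alone: Lama3 (3.16), Lamb3 (2.12) and Lamb1 (-1.39).

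Lama1 and Lama2 were followed as laminin chains that are not members. By label, Lama2, an alpha chain of muscle and mesenchyme, was called higher at label on in the pancreas on day 7 (3.00, SE 0.28, adjusted p = 0.0122). By organ, Lama1, the alpha chain of early basement membranes, was lower than in the pancreas in the liver (-2.58, adjusted p = 0.00634) and lungs (-2.68, adjusted p = 0.000386) at label off, and at label on (-2.23 and -2.88). Lama2 at label on was lower than in the pancreas in the liver (-2.21) and the lungs (-4.08, adjusted p = 0.000258), and higher in the liver than in the lungs (1.86), all called. Without the paired-end library, Lama2 was also called higher in the liver on day 7 (3.03, adjusted p = 0.0354, against 0.38 with it), where that left 1 library labelled off against 3, and in the mean of all 6 (1.24, adjusted p = 0.0148, against 0.80). All of these Lama1 and Lama2 organ differences were still called without it.

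Basement membrane partners of laminin (17 genes of nidogens, collagens, perlecan and matricellular proteins) and 10 laminin receptors were followed in the same way. By label, 2 of 16 partners tested were higher in the pancreas on day 7 (1.33% of all genes called), Nid2 (2.90, adjusted p = 0.00496), which bridges laminin and collagen IV, and Fbln1 (2.32). On day 14, 4 were higher and 1 lower (4.64% of all genes), with the lowest adjusted p for Col7a1 (-1.43, adjusted p = 0.0017), the anchoring fibril collagen, and Col4a4 (2.76, adjusted p = 0.00335), a collagen IV chain. In the mean of all 6, 2 of 17 partners were higher and 3 lower (6% of all genes), led by Col7a1 (-1.73, adjusted p = 4.86e-06) and Col4a4 (1.55, adjusted p = 2.04e-05), and all 5 were also called without the paired-end library. No receptor was called in a label comparison or in the mean. Without the paired-end library, when 1 library labelled off was compared with 3 labelled on and 4.98% of all genes were called, the liver on day 7 called 1 partner higher and 4 lower of 17, led by Col7a1 (-2.47, adjusted p = 0.0263) and Smoc2 (-3.80, adjusted p = 0.0263), and 1 receptor higher and 2 lower of 10, led by Itga7 (2.73, adjusted p = 0.0277) and Cd151 (-1.23, adjusted p = 0.0322). In the lungs against the pancreas, 6 of 17 partners were lower at label off (19% of all genes called in either direction) and 8 at label on (13.7%), and none higher, led by Sparc (-4.27, adjusted p = 1.89e-06) at label off. In the liver against the pancreas, 1 was lower at label off (9.52% of all genes called, and 7 partners without the paired-end library) and 9 at label on (22.6%). Bcam, a receptor of Lama5-containing laminins, was higher than in the pancreas in the liver (1.39 and 1.74) and lungs (1.84 and 1.31) at label off and on, and Itga7 was lower at label off in both (-1.20 and -1.56). Fibroblast and acinar marker sums moved with these organ differences as given above.

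The genes most like each chain over the 35 libraries, by Pearson r of log2 CPM among 17547 genes, were Bgn (0.977) and Serpinf1 (0.976) for Lama4, Nav1 (0.961) and Gli3 (0.945) for Lamb1, and Nrp2 (0.929) and Runx2 (0.925) for Lamc1. For Lamb3 they were Adam8 (0.859) and Cldn4 (0.815), for Lama3 Apol7a (0.847) and Cidec (0.842), for Lama5 Diaph1 (0.84) and Ezr (0.828), and for Lamb2 Mroh1 (0.858) and Mink1 (0.832). Among the members, the highest r were between Lamb1 and Lamc1 (0.869), Lama3 and Lamb3 (0.838) and Lama4 and Lamb1 (0.766). The lowest were between Lama4 and Lama5 (-0.772) and between Lama4 and Lamb2 (-0.63). These are descriptions over libraries that share organ, sort and depth.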

How the data were processed

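The authors deposited featureCounts counts, whole numbers for 53465 genes in 35 libraries, not normalized. Per the labels and the study's methods, mKate2+ cells were sorted, and TruSeq stranded mRNA libraries were read as 75-bp single ends (1 library is labelled paired-end), checked with FastQC 0.11.5, trimmed with Trimmomatic 0.36, aligned with STAR 2.5.3a to GRCm38 and counted with featureCounts 1.6.3. No columns were left unmatched and 0 pairs of libraries were identical.

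Counts were filtered with filterByExpr (minimum count 10, total 15), scaled by TMM and fitted with edgeR 4.0.16 (quasi-likelihood, robust; R 4.3.3), per organ and day for label comparisons and over 12 groups otherwise, with Benjamini-Hochberg adjustment over all genes tested. Called means a fold over 2 and an adjusted p under 0.05. Shares of all genes called use both, and no share is given for an adjusted or unadjusted p alone. Between 14234 and 16007 genes were tested per organ and day. Levels per kilobase used the exon length of the count table. Chain ratios used 0.5 added counts and a two-sided permutation test (100000 resamples). Both were checked on simulated data. Figures were drawn with matplotlib 3.10.9 (Python 3.11.15).

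The members and gene lists were chosen with earlier results of these data known. The 7 members were named in every comparison, the 2 genes with the highest correlation for each, and up to 2 called genes of lowest adjusted p per list and comparison. Motifs were searched in RefSeq promoters of GRCm38.p6. Alternatives were DESeq2 1.42.0, its size factors, no filter or 10 counts in every library, no fold threshold, a single fit, day 14 alone, the presence of mt-Co3 counts (10 libraries) as a covariate, mouse number as a block, and leaving out each library. Leaving out the paired-end library was also listed as an alternative of its own. That 1 fit therefore enters the counts of alternatives and the tally below 2 times. The lists without the paired-end library were added after seeing the data. Some alleles of the cells and some laminin genes that are not members are not reported here.

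Libraries with the same mouse number on day 14 deviated together from their group means in the liver (r = 0.149, 0.141 and 0.541 for mice 1 to 3) and the lungs (0.455, 0.457, 0.516 and 0.495 for mice 1 to 4), across genes, so that the numbers were taken to pair libraries there. In these groups mt-Co3 counts were found at both labels in lung mice 3 and 4 and in liver mouse 3, and in no other library. The part of that split in the shared deviations was not tested. The block itself was fitted in every organ and day. Nothing in the labels says that a number marks a shared animal, and p-values measure the spread between mice.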

Additional observations from a re-analysis of the deposited data

Results flagged for a closer look

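Differences of the label change between organs on day 7 drew attention because the test of the difference itself passed. For liver minus pancreas these were Lamb1 (-2.75) and Lamc1 (-1.67), and for liver minus lungs Lamb1 (-1.84), Lamc1 (-1.23) and Lamb3 (1.92). Among basement membrane partners, the pair of lowest adjusted p was Fbln1 (-4.65) and Col7a1 (-2.99) for liver minus pancreas, and Nid1 (-2.89) and Hspg2 (-2.10) for liver minus lungs. Of the laminin receptors, Itgb1 (-1.04) and Cd151 (-1.07) differed between liver and lungs. In all, 4 of 17 partners were called in each of the 2 differences, and 2 of 10 receptors in the second, against 5.08% and 11.6% of all genes. Without the paired-end liver library, the 5 laminin and the 8 partner calls were lost, and of the receptors only Cd151 was still called (-1.26, adjusted p = 0.0258), while Itga7 was called for liver minus pancreas (3.26, adjusted p = 0.0441). In 21 tests of a library far from its group in the groups of 4, 0 laminin values stood out.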

How the results depend on the processing

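Counts of called chains in this paragraph describe the settings only. The share of all genes called also moved with the setting, as in the liver on day 7 (0.444% in edgeR, 17.7% with DESeq2). It is given above for DESeq2 by label and for leaving out a day 7 liver library labelled off. For other settings it is not given. The 6 label comparisons called 0 chains in edgeR and 0 with DESeq2 size factors. They called 5 with DESeq2, 3 in a single fit of 12 groups, 2 without a filter, and 1 each with 10 counts in every library, the mt-Co3 covariate, no fold threshold or no paired-end liver library. Leaving out 1 library gave 0 to 5, the highest without liver off day 7 mouse 1. The mean of the 6 called 0 chains, 4 without a fold threshold and 0 to 1 with 1 library left out. The 15 calls between organs became 26 without a fold threshold and 13 to 18 with 1 library left out. The 5 calls of a label change that differed between organs became 2 without a filter, 0 without the paired-end library and 0 to 9 with 1 library left out. By day, 0 chains became 0 to 3 with 1 library left out.

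With mouse number as a block (replicate block), the label comparisons called 0 chains, the mean of the 6 called 1 (Lamb1, -1.06, SE 0.19, adjusted p = 0.00338), and the differences of the label change between organs 0. On day 7 and in the pancreas the numbers give 2 pairs a comparison, with correlations of -0.301 to 0.318. No paired analysis was possible because organs and days share no mouse for the organ and day comparisons, and because no pancreas library has mt-Co3 counts no covariate was fitted there.

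Signs turned only for values that were not called: without the paired-end library Lama4 in the liver on day 7 (1.64), Lama4 in the mean (0.30) and the Lama4/Lama5 ratio by label (0.408); with the covariate Lama5 in the lungs on day 7 (0.01); with the replicate block Lamc1 in the lungs on day 7 (-0.12) and Lama5 in the pancreas on day 14 (0.08); and on day 14 alone Lama3 for lungs against pancreas at label off (-0.17). With 1 library left out, the ranges that crossed 0 were -0.97 to 0.08 (Lama3) and -0.07 to 0.27 (Lamb1) in the pancreas on day 7, -3.71 to 1.64 (Lama4) and -0.24 to 0.75 (Lamb2) in the liver on day 7, and -2.10 to 0.23 (Lama4), -0.35 to 0.19 (Lama5) and -0.02 to 0.17 (Lamc1) in lung libraries of day 7. The day 14 ranges were -0.38 to 0.07 (Lama3) and -0.29 to 0.30 (Lama5) in the pancreas, -2.49 to 0.58 (Lama4) in the liver and -0.22 to 0.01 (Lamb2) in the lungs. Lama4 in the mean ranged from -0.73 to 0.30, Lama3 from -0.02 to 0.31 and Lamb3 from -0.44 to 0.17 for lungs against pancreas at label off and on, and the Lama4/Lama5 ratio by label from -0.51 to 0.41. The cause of these changes was not tested. The tally here covers the label, mean and organ comparisons, the called differences of the label change between organs, and the ratios. In it, 3161 single values kept their direction and side of the threshold, 83 lost a call, 64 gained one and 35 turned. The day comparisons and the other differences of the label change are not counted. Counting error was largest for the lowest member count, 20 for Lama4 in a lung library. Where 1 library is left out of a group of 2, the remaining one is assumed to vary like the other group.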
